A study of Homo sapiens with 3 samples.

Results

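Toll-like receptors, their shared adaptor MYD88 and the co-receptor CD14 were measured in IFN-γ-treated HT-29 cells. The genes were taken by name (TLR1 to TLR8, MYD88 and CD14), and every probe set with that single gene symbol was used. All 10 genes were on the array, with 1 probe set each, among 11963 named genes and 19065 single-symbol probe sets. HT-29 is an established human cell line from a colon adenocarcinoma. The series holds 1 group of 3 arrays, described as biological replicates, from cultures that received interferon-γ (IFN-γ), a cytokine released by T and NK cells, at 200 U/ml for 24 h. No untreated cultures were analysed here, so a response to IFN-γ cannot be read from any value given here.

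Toll-like receptors are membrane proteins that recognise conserved molecules of microbes, and they are the entry point of innate immune signalling in myeloid cells and in epithelium. TLR1, TLR2, TLR4, TLR5 and TLR6 sit mainly at the cell surface and bind bacterial lipoproteins, lipopolysaccharide or flagellin, whereas TLR3, TLR7 and TLR8 sit in endosomes and bind RNA. After a ligand binds, most of these receptors recruit MYD88 through a shared intracellular domain, which leads to the IRAK kinases, TRAF6, NF-κB and inflammatory genes, while TLR3 uses the adaptor TICAM1 (TRIF). In the gut, where bacteria are always near, colonic epithelium is known for keeping several of these receptors low or confined to one face of the cell.

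The capital letters in the following promoters show where 2 motifs of interferon signalling lie in the genes that the results turn on. The motifs are the interferon-stimulated response element (ISRE), searched as a pair of GAAA half-sites with any 2 bases between them and bound by IRF proteins, and the γ-activated site (GAS), searched as TTCNNNGAA. Both strands were searched from 250 bases before to 50 bases after a start of each gene in GRCh38.p14, and positions count from that start. Both motifs are in capitals. For CD14 and TLR6, on the minus strand, the start used lies inside the gene. In RefSeq's annotation these genes begin at chr5:140633701 and chr4:38868390, which their windows do not reach. The TLR3 window is chr4:186068906-186069205 on the plus strand, that of MYD88 is chr3:38138411-38138710 on the plus strand, and that of CD14 is chr5:140633126-140633425 on the minus strand.
TLR3: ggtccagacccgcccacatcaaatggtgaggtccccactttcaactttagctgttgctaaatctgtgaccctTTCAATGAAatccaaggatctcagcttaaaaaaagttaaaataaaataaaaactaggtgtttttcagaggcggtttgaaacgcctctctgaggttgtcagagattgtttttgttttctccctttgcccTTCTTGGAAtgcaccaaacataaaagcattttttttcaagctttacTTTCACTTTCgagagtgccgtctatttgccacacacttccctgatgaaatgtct
MYD88: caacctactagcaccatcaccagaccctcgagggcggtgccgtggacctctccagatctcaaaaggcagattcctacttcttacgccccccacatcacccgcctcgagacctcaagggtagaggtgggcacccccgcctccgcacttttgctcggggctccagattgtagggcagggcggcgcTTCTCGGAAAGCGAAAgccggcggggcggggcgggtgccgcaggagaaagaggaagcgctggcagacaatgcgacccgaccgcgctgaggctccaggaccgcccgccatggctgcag
CD14: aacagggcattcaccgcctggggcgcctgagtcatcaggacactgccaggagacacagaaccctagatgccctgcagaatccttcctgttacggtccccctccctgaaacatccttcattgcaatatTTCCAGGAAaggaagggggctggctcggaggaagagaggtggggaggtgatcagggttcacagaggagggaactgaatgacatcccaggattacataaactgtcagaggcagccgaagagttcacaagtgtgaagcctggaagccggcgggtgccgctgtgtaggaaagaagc
The TLR3 window held 1 ISRE match across the start, from base -4 to base 6, and 2 GAS matches, from -178 to -170 and from -50 to -42. In MYD88 the ISRE match lay from -61 to -52 and shared 3 bases with a GAS match from -67 to -59. The CD14 window held 1 GAS match, from -123 to -115, and no ISRE match. Promoters were in the table for 8 of the 10 genes, all but TLR1 and TLR7, and those of TLR2, TLR4, TLR5, TLR6 and TLR8 held neither motif. Of all 35116 promoters in the table, 3.57% held the ISRE letters, 7.66% the GAS letters and 0.439% both.

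The identity of each value was checked first, because the probe set names in the deposited table appear displaced against their values. Probe sets of one gene should have related signals, and over 4310 genes with several probe sets their log2 signals correlated with r = 0.60 in the order used and with r = 0.19 in the deposited order. These are correlations across genes within the same arrays, not across replicates. The order was inferred from these data, so every level given here depends on it. Since each of the 10 genes had only 1 probe set, its own probe set could not be compared with another. The probe sets within 100 rows on either side of it were therefore set against distant probe sets of the same genes, over 22 to 123 neighbours. Around each of the 10 genes this correlation was highest at the order used, at 0.42 to 0.71, whereas the highest value within 5 rows either way was 0.07 to 0.34. The gap was narrowest around TLR7, at 0.42 against 0.30 over 22 neighbours, too few to settle the order there. CD14 was moved by 488 rows and the other 9 genes by 487 rows. These correlations are descriptions over probe sets of the same arrays.

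**Figure D1:**
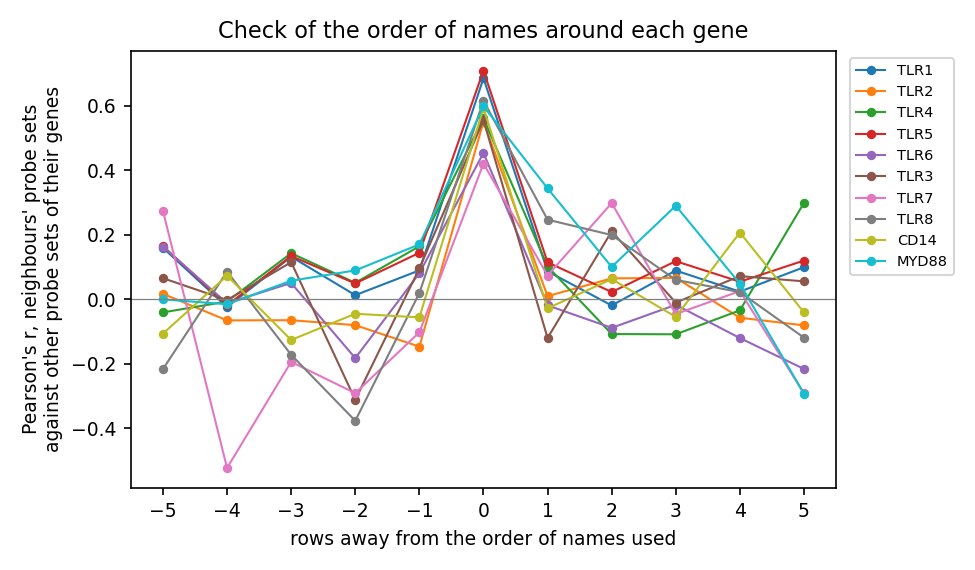
Correlation of mean log2 signal between the probe sets around each gene and other probe sets of the same genes (vertical axis), when the names are moved by up to 5 rows from the order used (horizontal axis), with 1 line per gene. Each of the 10 lines has its highest point at 0 rows, between 0.42 and 0.71.

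MYD88 and TLR3 were detected, and the other 7 receptors and CD14 were not. A gene was called detected when its log2 signal exceeded the array's background limit in limma's one-sided test, at an adjusted p under 0.05 (Benjamini-Hochberg, over the 11963 genes). The limit was the 95th percentile of 78 measured genes that are restricted to other tissues, and stood at 191, 207 and 154 signal units in replicates 1, 2 and 3. Of the 10 genes 2 were detected, where 43.3% of all genes were. The median of the 10 genes was -1.03 log2 units from the limit, and that of all genes was 0.08. The 2 detected genes lay above the limit on all 3 arrays (46.2% of all genes did), and the other 8 lay below it on all 3 arrays (42.1% of all genes did).

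**Figure D2:**
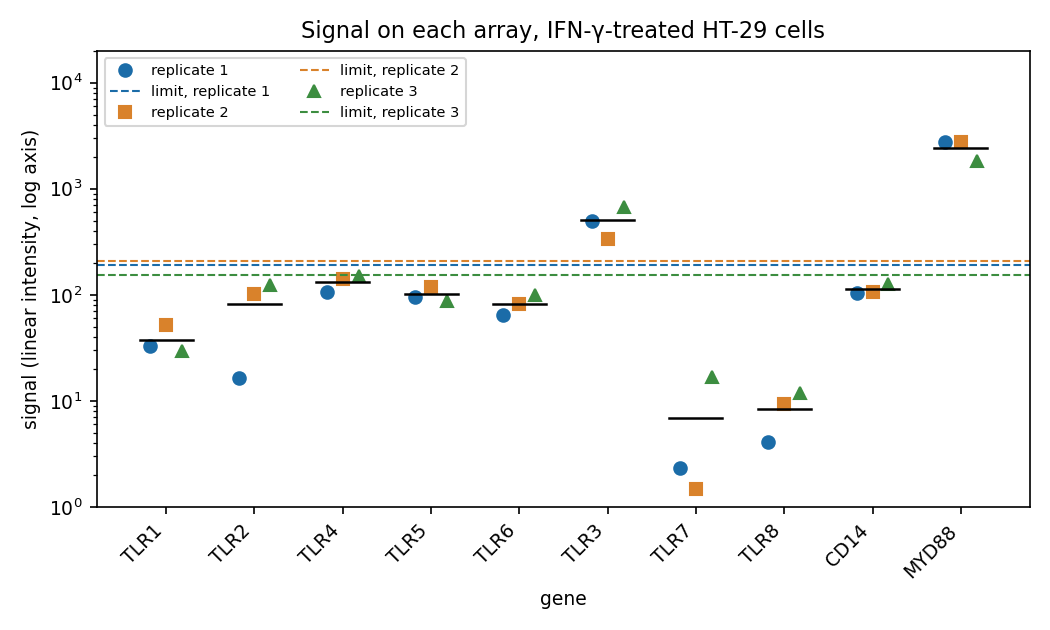
Signal of each gene on each array (vertical axis, linear intensity on a log axis), with 1 symbol per replicate, a black line at the mean, and a dashed line at the background limit of each array. MYD88 and TLR3 lie above all 3 limits, the other 8 genes lie under them, and TLR7 and TLR8 lie lowest against the limit.

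MYD88, the adaptor through which most Toll-like receptors and the IL-1 and IL-18 receptors signal, had signals of 2760.5, 2730.5 and 1824 in replicates 1, 2 and 3. All 3 arrays were far above their limits, and replicate 3 was the lowest. The mean was 2438 ± 532 (SD, n = 3), or 3.71 log2 units over the limit (95% interval 3.30 to 4.13) and 13.1-fold on the linear scale (limma adjusted p = 6.39e-08).

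TLR3, the endosomal sensor of double-stranded RNA, had signals of 500.4, 339 and 671 in replicates 1, 2 and 3. Each was above its limit, by the least in replicate 2 and by the most in replicate 3. The mean was 503 ± 166 (SD, n = 3), at 1.41 log2 units over the limit (95% interval 0.82 to 2.0), or 2.65-fold (limma adjusted p = 0.000589). The call ended when the limit was set at the brightest tissue-restricted gene of each array, where TLR3 lay at -0.017 log2 units and MYD88 at 2.29. Read against that highest limit, MYD88 alone of the 10 genes was detected.

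The other endosomal receptors, TLR7 and TLR8, were far under the limit. Both recognise single-stranded RNA and are known from plasmacytoid dendritic cells, B cells and myeloid cells. TLR7 had signals of 2.32, 1.46 and 16.9 in replicates 1, 2 and 3, and TLR8 had 4.10, 9.38 and 11.9. All 6 values were under 20, at a level where the array gives no order between them. TLR7 averaged -5.57 log2 units against the limit (95% interval -7.28 to -3.86) and TLR8 averaged -4.57 (95% interval -5.78 to -3.36), with limma adjusted p = 1 for each.

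None of the 5 cell surface receptors was detected, and 0 of them passed at an unadjusted p under 0.05. TLR4, the receptor for bacterial lipopolysaccharide, had signals of 106, 139 and 149 in replicates 1, 2 and 3 and came nearest to its limits. It lay at -0.49 log2 units, and the 95% interval of -1.13 to 0.15 reached past the limit (limma adjusted p = 1). Its probe set name ends in _s_at, which marks a design that fits more than 1 transcript, and no other of the 10 has such a name. Because that interval crosses the limit, a signal just over background is not told apart from none for TLR4.

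TLR5, the receptor for flagellin, had signals of 95.8, 118 and 88.3 in replicates 1, 2 and 3. The 3 arrays were close to each other and all were under their limits, with a mean of -0.87 log2 units (95% interval -1.52 to -0.22, limma adjusted p = 1). TLR2, which recognises bacterial lipoproteins together with TLR1 or TLR6, had signals of 16.6, 102 and 124 in replicates 1, 2 and 3. Replicate 1 stood well apart from replicates 2 and 3, and no array reached its limit. The mean lay at -1.62 log2 units (95% interval -2.88 to -0.35, limma adjusted p = 1).

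The 2 partners of TLR2 were also under the limit. TLR1, the partner for triacylated lipoproteins, had signals of 32.6, 51.6 and 29.4 in replicates 1, 2 and 3 and lay at -2.31 log2 units (95% interval -3.17 to -1.46). TLR6, the partner for diacylated lipoproteins, had 63.9, 81.5 and 98.6 and lay at -1.19 log2 units (95% interval -1.94 to -0.44). Limma's adjusted p was 1 for each, and neither gene reached the limit on any array.

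CD14, which hands lipopolysaccharide to TLR4 and is a marker of monocytes, had signals of 104, 106 and 127 in replicates 1, 2 and 3. The arrays agreed within a ratio of 1.22 between the highest and the lowest, and all were under their limits. The mean of 112 ± 12.6 (SD, n = 3) lay at -0.71 log2 units (95% interval -1.37 to -0.045, limma adjusted p = 1). CD14 was the only one of the 10 genes whose call turned when all names were moved by one displacement, and the only one whose value could change. The other 9 genes were at 487 rows already, so for them that setting altered only the limit. With 487 rows for every name in place of 488 at CD14, the neighbouring value gave 5.05 log2 units over the limit, and CD14 would be called (limma adjusted p = 4.48e-08). Around CD14 the correlation of neighbouring probe sets with their partners was 0.59 at 488 rows, and at most 0.21 at the other displacements tried.

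Markers of the cells best known for TLR7, TLR8 and CD14 were mostly not detected either. Of 14 measured myeloid markers 1 was detected. Their summed signal was 1475 to 1841 per array, of which SIGLEC1 alone gave 777, 905 and 632 in replicates 1, 2 and 3. CSF1R, the macrophage growth factor receptor, had a mean signal of 78.4 ± 16.9, and TYROBP, a myeloid signalling adaptor, had 44.2 ± 18.2 (SD, n = 3 each). The exception was SIGLEC1, a macrophage sialic acid receptor, at 771 ± 137 (SD, n = 3; limma adjusted p = 1.66e-06), where 1 of its 2 probe sets exceeded the limit on every array. SIGLEC1 was chosen for mention after its values were seen. Of B cell markers 0 of 5 were detected by limma, with 0 at an unadjusted p under 0.05, and over the myeloid, B, T and NK, endothelial and fibroblast lists together 1 of 35 was. All 11 epithelial markers were detected, among them EPCAM at 8942 ± 3370.3 and KRT8 at 11967 ± 2674 (SD, n = 3 each). In such bulk RNA, fewer cells with a transcript and less of it per cell cannot be told apart.

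The other genes of the pathway, grouped by role, were detected in part. Of 57 measured pathway genes 24 (42.1%) were detected, a share near the 43.3% of all genes and so no result about the list, and their median was 0.26 log2 units over the limit against 0.08 for all genes. With the limit at the brightest tissue-restricted gene 13 of the 57 were detected, all of them among the 24, beside 2781 of all 11963 genes. CHUK, CXCL2, CYLD, FOS, IKBKG, NFKB1, NFKBIA, SIGIRR, TAB2, TOLLIP and TRAF6 were then no longer detected. Without probe sets of shared or cross-hybridising design 11 of 39 measured pathway genes were detected, beside 2871 of all 8361 genes. The groups were not tested against each other. Of the 66 genes listed, 9 had no single-symbol probe set, among them TLR9 and TLR10, and were not analysed here.

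**Figure D3:**
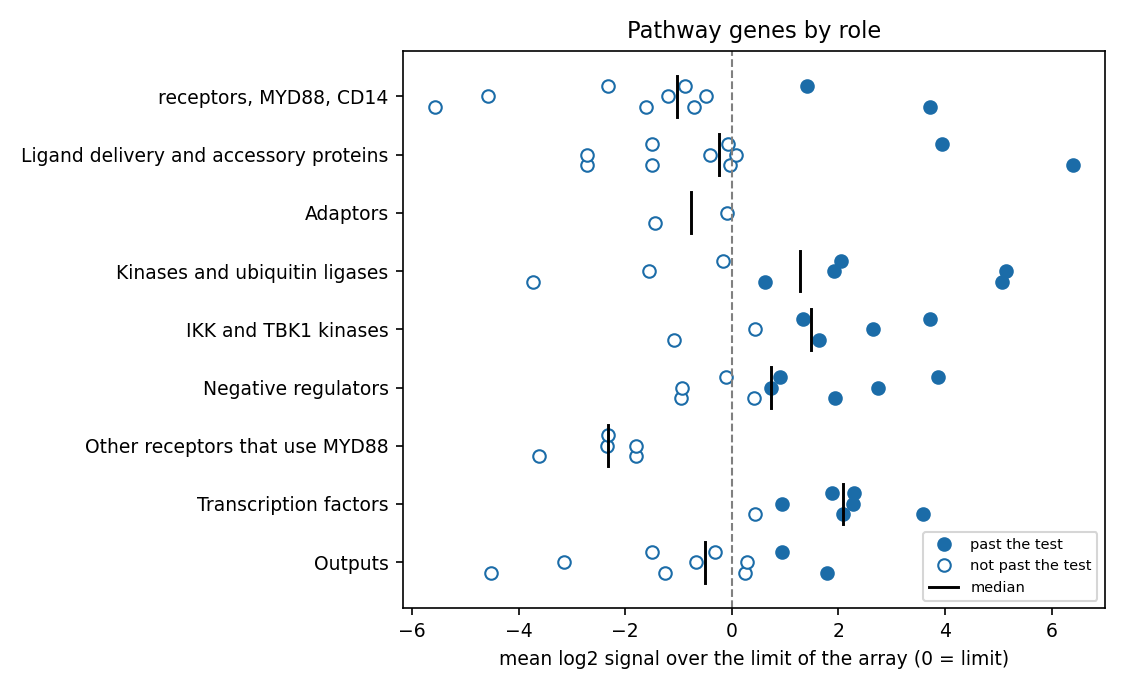
Mean log2 signal over the array's limit (horizontal axis, 0 is the limit) for TLR1 to TLR8, MYD88 and CD14 in the top row and for the 57 other pathway genes by role below, with filled points for detected genes, open points for the others and a black line at each median. Transcription factors and kinases lie mostly right of the limit, and receptors mostly left of it.

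Proteins that deliver ligands or fold and carry the receptors gave 2 detected genes of 10, where 43.3% of all genes were detected. HSP90B1, the endoplasmic reticulum chaperone that Toll-like receptors need to fold, had a mean signal of 2992 ± 1317 (SD, n = 3; limma adjusted p = 5.81e-07). HMGB1, a nuclear protein that can act as a danger signal, had signals of 15063, 13699 and 17736 in replicates 1, 2 and 3 (limma adjusted p = 6.3e-08). Both values come from probe sets named _x_at, a mark of cross-hybridising designs. LY96 (MD-2), the subunit with which TLR4 binds lipopolysaccharide, had signals of 32.7, 21.4 and 30.7 in replicates 1, 2 and 3, under the limit on every array. The lipopolysaccharide-binding protein LBP had a mean of 138 ± 26.0 and the lipid receptor CD36 had 67.4 ± 21.2 (SD, n = 3 each), and neither was detected. TLR4 and the measured proteins that present lipopolysaccharide to it, CD14, LY96 and LBP, were thus all under the limit on all 3 arrays.

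UNC93B1, the protein that carries TLR3, TLR7 and TLR8 to endosomes, differed between cultures. Its signals were 282, 322 and 61.5 in replicates 1, 2 and 3, so that only replicate 3 was under its limit. It was not detected over all arrays, at -0.04 log2 units (limma adjusted p = 1), but passed without replicate 3, at 0.60 log2 units (adjusted p = 0.0266). Without replicate 1 it lay at -0.34 log2 units and without replicate 2 at -0.38, and it passed in neither case. CNPY3, a co-chaperone of the receptors, was above the limit in 1 of 3 arrays and had a mean signal of 210 ± 107 (SD, n = 3; limma adjusted p = 0.771).

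The 2 measured adaptors other than MYD88 were not detected, and 0 passed at an unadjusted p under 0.05. TICAM1, the adaptor of TLR3, had signals of 70.7, 83.9 and 51.7 in replicates 1, 2 and 3, and averaged -1.44 log2 units against the limit (limma adjusted p = 1). The 1 probe set of TICAM1 was thus under the limit on all 3 arrays, on which TLR3 was above it. SARM1, an adaptor known as a negative regulator and an NAD-cleaving enzyme, had a mean of 177 ± 55.8 (SD, n = 3) and was above the limit in 1 of 3 arrays. TIRAP and TICAM2, which bridge MYD88 and TICAM1 to TLR4, had no single-symbol probe set and were not analysed here.

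Of 8 measured kinases and ubiquitin enzymes that act after MYD88, 5 were detected, where 43.3% of all genes were. IRAK1, the kinase recruited to MYD88, had a mean signal of 6517 ± 855, and UBE2N, the enzyme that builds ubiquitin chains with TRAF6, had 6182 ± 701 (SD, n = 3 each; limma adjusted p = 6.3e-08 for each). MAP3K7 (TAK1) had 755 ± 63.5 and its partner TAB2 had 695 ± 150.1 (SD, n = 3 each). The values of UBE2N and MAP3K7 come from cross-hybridising _x_at probe sets. Without suffixed probe sets UBE2N was still detected, at 2.39 log2 units over the limit (adjusted p = 3.99e-06), while IRAK1, MAP3K7 and TAB2 had only suffixed probe sets and so no value. TRAF6, the ubiquitin ligase at the centre of this step, passed more narrowly, at 322, 313 and 225 in replicates 1, 2 and 3 (limma adjusted p = 0.0168), and did not pass without replicate 1 (adjusted p = 0.174). IRAK3, a brake on IRAK signalling known from monocytes, was not detected at 14.7 ± 6.38 (SD, n = 3), nor were TAB1 at 63.0 ± 11.6 and TRAF3 at 164 ± 27.5 (SD, n = 3 each).

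Further down, 4 of 6 genes of the IKK and TBK1 kinases and 6 of 7 transcription factors were detected, beside 43.3% of all genes. TBK1, the kinase that activates IRF3 after TLR3, had a mean of 1155 ± 163, and TANK, its scaffold, had 2407 ± 184 (SD, n = 3 each). The IKK subunits CHUK and IKBKG were detected at 465 ± 90.1 and 591 ± 196, whereas IKBKB was not, at 89.8 ± 32.0 (SD, n = 3 each). IRF3, the transcription factor of the TLR3 branch, had 2248 ± 619 (limma adjusted p = 7.34e-08), and the NF-κB subunits NFKB1 and RELA had 681 ± 135 and 846 ± 392 (SD, n = 3 each). IRF7, which induces interferon genes after TLR7, had 962 ± 473, and FOS, a subunit of AP-1, had 356 ± 58.1 (SD, n = 3 each). IRF5, a transcription factor that acts with MYD88, was above the limit on all 3 arrays but did not pass, at 247 ± 35.6 (SD, n = 3; limma adjusted p = 0.12). JUN, the partner of FOS, had 934 ± 312 (SD, n = 3) on a cross-hybridising probe set, but lay at -0.26 log2 units without suffixed probe sets (adjusted p = 1). Only 1 of its 4 probe sets was above the limit on all 3 arrays, and with their median JUN lay at 0.04 log2 units (limma adjusted p = 0.868).

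Of 9 negative regulators 5 were detected, where 43.3% of all genes were. SIGIRR, a membrane receptor that damps Toll-like and IL-1 receptor signalling in gut epithelium, had signals of 732, 810.1 and 573 in replicates 1, 2 and 3 (limma adjusted p = 2.76e-06). TOLLIP, which binds IRAK1, had 358, 472 and 240 in replicates 1, 2 and 3 (adjusted p = 0.00228), and both genes were above the limit on every array. PELI1, a ubiquitin ligase of the IRAK complex, had a mean of 1230 ± 188 (SD, n = 3). TNFAIP3 (A20), a deubiquitinating enzyme that NF-κB switches on, was not detected at 169.9 ± 24.0 (SD, n = 3). With one displacement for every name it took a neighbour's value and passed, at 1.36 log2 units (adjusted p = 0.000107). The correlation around its probe sets was 0.35 at the order used, 0.08 at that displacement and at most 0.16 at any other one tried. CYLD, another deubiquitinating enzyme, was detected through 1 of its 7 probe sets (adjusted p = 0.00898), and lay at -0.19 log2 units with their median (adjusted p = 1) and missed the threshold without replicate 1 (adjusted p = 0.114).

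The receptor genes listed for IL-1, IL-18 and IL-36, which are among the others that use MYD88, were not detected. All 5 lay under the limit on every array (42.1% of all genes did), with 0 at an unadjusted p under 0.05, and their median was -2.33 log2 units. IL1R1 had a mean of 36.4 ± 2.31, IL1RAP had 39.7 ± 21.4 and IL18R1 had 21.3 ± 21.8 (SD, n = 3 each). MYD88 was thus detected in cells where TLR1, TLR2, TLR4 to TLR8 and these 5 receptors were not.

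Of 10 inflammatory genes that Toll-like receptors are known to switch on, 2 were detected, where 43.3% of all genes were. NFKBIA, the inhibitor of NF-κB, had signals of 853, 765 and 376 in replicates 1, 2 and 3 (limma adjusted p = 2.33e-05). CXCL2, a neutrophil chemokine, had 414, 311 and 334 (adjusted p = 0.00205) on a cross-hybridising probe set. CXCL1, of the same chemokine family, was above the limit on all 3 arrays but did not pass, at 219 ± 24.2 (SD, n = 3; adjusted p = 0.304). TNF had signals of 55.7, 77.2 and 62.3 in replicates 1, 2 and 3, and the means of IL6 and CXCL8 were 76.4 ± 8.09 and 117 ± 32.0 (SD, n = 3 each), all under the limit on every array. The value of CXCL8 is uncertain, because the correlation around its probe set was 0.20 at the order used and up to 0.26 at other displacements. One displacement for every name put it at 4.54 log2 units over the limit (adjusted p = 4.48e-08), but the correlation at that displacement was -0.13. Around the other CXCL8 probe set it was 0.71 at the order used and at most 0.14 elsewhere. Neither of the 2 probe sets exceeded the limit on all 3 arrays. IFNB1, the interferon made after TLR3 is engaged, had signals of 7.60, 7.88 and 8.53, and CCL20 was at 20.7 ± 3.34 (SD, n = 3).

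The spread between cultures differed among the 10 genes. MYD88 had an SD of 0.34 log2 units and TLR3 of 0.49, against a median of 0.29 and quartiles of 0.18 and 0.43 over all detected genes, so TLR3 lay above their upper quartile and MYD88 between the median and that quartile. MYD88 was lowest in replicate 3 and TLR3 was highest there. Over all detected genes 45.4% were lowest and 33.4% highest in replicate 3. Among genes not detected the median SD was 0.47 log2 units and the upper quartile was 0.81. TLR2 with 1.60 and TLR7 with 1.88 were above that quartile, whereas CD14 with 0.16 and TLR5 with 0.21 were below the median.

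The interferon motifs were set beside the calls. Among the 8 genes with a promoter in the table, the ISRE letters stood in those of MYD88 and TLR3, which were the 2 detected genes, and in none of the other 6. GAS letters stood in these and in CD14, which was not detected. Over all array genes with a promoter the share with the ISRE letters was 3.22% of 4408 detected genes and 2.75% of 5155 genes that were not, and for the GAS letters it was 6.56% and 6.71%. Of 5 other patterns searched, NF-κB (GGGAC followed by TTTCC) was in 0 of the 8 promoters and 0.191% of all promoters, and AP-1 (TGACTCA) was in that of CD14 and in 4.95%. The PU.1 letters GAGGAA were in 4 of 8 and 27.9% of all, the ETS letters AGGAAG in 6 of 8 and 33.6%, and a stricter GAS (TTCCNGGAA) in that of CD14 and in 1.15%. The motifs were chosen after the calls were known, no test was made, and a match is a description of letters, not of binding.

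**Figure D4:**
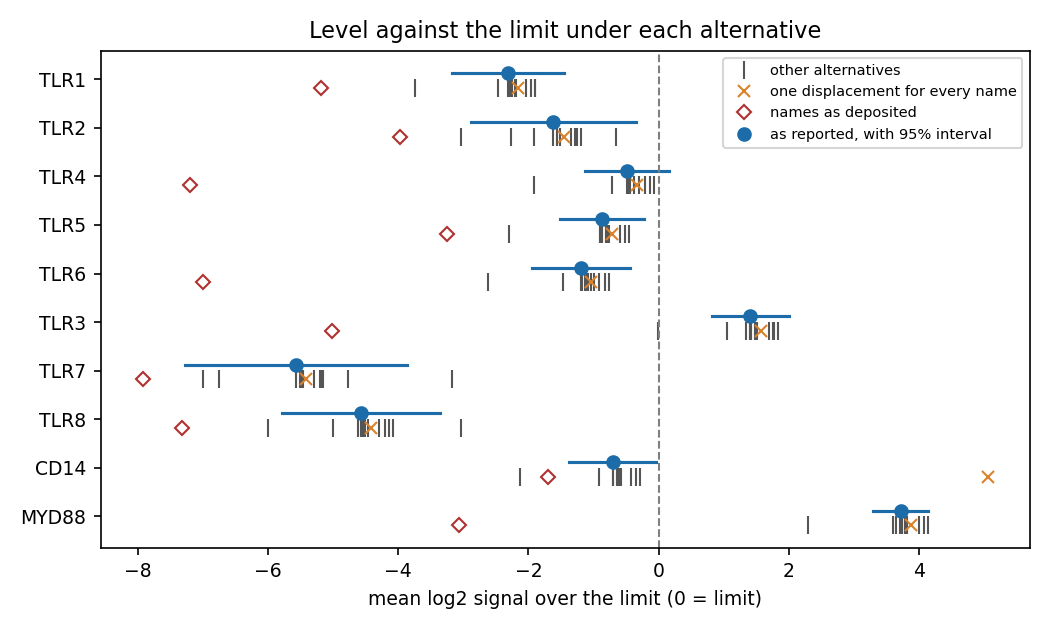
Mean log2 signal over the limit (horizontal axis, 0 is the limit) for each gene as reported (filled circle with its 95% interval) and under each alternative (grey bars, with a cross for one displacement of all names and an open diamond for the names as deposited). MYD88 stays right of the limit except under the deposited names, TLR3 reaches -0.017 at the highest limit, and CD14 moves to 5.05 with one displacement.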

How the data were processed

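Gene expression was measured on 3 Affymetrix arrays of HT-29 cells, all of 1 group, and replicates follow the labels. The deposited values are linear signal intensity per probe set, and the submitters' processing notes name Affymetrix Expression Console 1.1 with MAS5. The mean of each array without its highest and lowest 2% was 500.3, which shows a common scaling by the authors. Its target and the presence calls are not given in the sources used here. The number of arrays limits the precision.

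Values of 22277 probe sets were used (6 were empty). They were assigned in file order to 15 unnamed values, the 100 probe sets numbered from 200000, 493 with lower numbers and 21622 others, and 62 control probe sets were left out. Names came from the platform annotation, with symbols updated through RefSeq gene identifiers of GRCh38.p14. Only probe sets with 1 symbol were used, and the probe set of highest mean log2 signal stood for a gene, with no pseudocount. The background list held 85 genes, of which 78 were measured.

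An intercept model of log2 signal minus the array's limit was fitted over all genes by limma 3.58.1 under R 4.3.3 (variance trend on), and tested one-sided with Benjamini-Hochberg adjustment. The p-values leave out the error of the limit itself. The fit was run on simulated data with known shifts, in which every gene had the same SD. In the real data the SD was larger among genes not detected, so the simulation does not show how reliable the calls are. Intervals are 95% intervals of the moderated fit. The genes, lists, limit and motifs were chosen with earlier results of these data known. All 10 genes and any measured gene of the pathway lists could be named, and of the cell type markers the first 4 measured of each list, with SIGLEC1 as the exception stated. No gene was sought for a pattern like another's, because 3 arrays of 1 group give none. Alternatives changed the order of names, the limit, the choice of probe sets, the normalization, the pseudocount, the filter on dim genes, the variance trend and the replicates.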

Additional observations from a re-analysis of the deposited data

How the results depend on the processing

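The calls of MYD88 and TLR3 rest on the order of the names, and that of TLR3 also on the height of the limit. Under the names as deposited 0 of the 10 genes were detected by limma, 418 of all genes and 3 pathway genes, and TLR3 lay at -5.02 and MYD88 at -3.07 log2 units. The limit at the brightest tissue-restricted gene left 1 of the 10 genes, 2781 of all genes and 13 pathway genes, with TLR3 at -0.017. Without suffixed probe sets the counts were 2871 of 8361 genes and 11 pathway genes, where fewer genes were tested, and with every probe set by itself 44 of 101 pathway probe sets passed. With one displacement for every name CD14 lay at 5.05, since it took its neighbour's value, and 29 pathway genes passed, with CXCL8, DUSP1, IKBKE, IRF5 and TNFAIP3 added to the 24. Of these, CXCL8, DUSP1 and TNFAIP3 were read from probe sets moved by 488 rows, and so also took a neighbour's value. IKBKE and IRF5 were at 487 rows already and kept their values. Only the limit changed for them, and they went from 0.43 to 0.58 log2 units each. The cause of the other changes was not tested. Leaving out 1 replicate gave 2 of the 10 genes each time, 4778 to 5152 of all genes and 22 to 25 pathway genes. Under the 13 alternatives that kept the order of names, MYD88 lay at 2.29 to 4.13 log2 units and passed in 13, and TLR3 lay at -0.017 to 1.83 and passed in 12. The 8 other genes passed in none of those that gave them a value, and TLR4, which has no value without suffixed probe sets, came nearest at -0.071. A limit from 35 markers of other cell types, chosen after seeing the data, gave 2 of the 10 genes, and only those. No paired analysis was possible because the arrays form 1 group. A dim signal cannot show that a transcript was absent, only that it was not told apart from probe sets of foreign genes.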
